A study of Homo sapiens with 8 samples.

Results

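The genes described here are 32 receptors and markers of monocytes and macrophages, taken by gene symbol from a count table of 57992 genes. All 32 symbols matched 1 gene each. RNA of 2 human leukaemia cell lines was sequenced in 4 groups of 2 libraries: U937 in 10 mM of a compound labelled dG, U937 in PBS as vehicle, KG1A in 10 mM dG and KG1A in PBS. Cells of all groups grew in RPMI medium with dialyzed serum and antibiotics. U937 is an established line of monoblast character and KG1A an established line of immature cells. Each is 1 line. Whether the 2 replicates of a group were grown separately is not given in the labels, and the tests therefore speak only of the spread between libraries, which may be technical. The study's title concerns disturbed deoxynucleotide pools and the block of maturation in acute myeloid leukaemia.

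Monocytes and macrophages find microbes through Toll-like receptors at the surface and in endosomes. They bind antibody-coated particles through Fc gamma receptors, follow complement and chemokine gradients through G protein-coupled receptors, and are held in check by inhibitory receptors such as the LILRB family and SIRPA. CD14, CSF1R, LYZ, CD68, CD163 and MRC1 are widely used to mark the lineage and its stages of maturation.

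In U937, 18 of the 32 genes rose in dG and 3 fell, while 8 did not pass the test and 3 were too low to test. Low genes were filtered over all groups of both lines together. Of the 8, MRC1 and VCAN had 0 counts in every U937 library, so they could not be called there. Over all 18314 genes tested in U937, 64.0% were called, 32.4% higher and 31.5% lower. By the fitted value, low counts included, 13 members were called at least 2-fold higher and 1 lower, beside 9.71% and 7.74% of all genes counted the same way. Of the 13, CD86 and LILRB4 held 3 or fewer counts in PBS and have no fold change here. Among members with a fold change, the receptor genes C5AR1, FPR1, TLR7 and TLR1 and the lysozyme gene LYZ rose most, by 9.33-fold (LYZ) to 20.3-fold (C5AR1). In KG1A 8 members were called higher and 1 lower, 20 did not pass, and over all genes 49.1% were called, 29.6% higher and 19.6% lower. Of the 20, TLR2, TLR7, FCGR1A, FCN1 and LILRB2 had 0 counts in every KG1A library and could not be called there. By the fitted value 5 members were at least 2-fold higher and 1 lower, beside 5.64% and 1.15% of all genes (6.79% in either direction), and CD33 and LILRB1 of the 5 have no fold change here. FCGR2A, CCR2 and C5AR1 rose there by 11.4-fold, 3.90-fold and 3.45-fold. A gene is called at an adjusted p below 0.05. Fold changes are given only where both groups hold more than 3 counts in sum, and otherwise counts are given.

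Members called higher in both lines with a fold change in each were TLR1, TLR6, CCR1, FCGR2A and C5AR1. The promoter windows of the 4 found in the RefSeq table (GRCh38.p14, 250 bases before to 50 after the gene start, gene strand) are shown because these genes were called in the same direction in both lines. Capitals mark GAGGAA on either strand, the core letters bound by the myeloid factor PU.1.
C5AR1 at chr19:47309611-47309910, plus strand: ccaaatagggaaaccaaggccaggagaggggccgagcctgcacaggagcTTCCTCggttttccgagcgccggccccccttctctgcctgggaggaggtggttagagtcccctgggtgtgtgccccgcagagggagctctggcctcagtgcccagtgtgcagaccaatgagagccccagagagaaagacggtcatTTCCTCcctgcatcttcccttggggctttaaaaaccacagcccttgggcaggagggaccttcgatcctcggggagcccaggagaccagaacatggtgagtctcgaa
FCGR2A at chr1:161505207-161505506, plus strand: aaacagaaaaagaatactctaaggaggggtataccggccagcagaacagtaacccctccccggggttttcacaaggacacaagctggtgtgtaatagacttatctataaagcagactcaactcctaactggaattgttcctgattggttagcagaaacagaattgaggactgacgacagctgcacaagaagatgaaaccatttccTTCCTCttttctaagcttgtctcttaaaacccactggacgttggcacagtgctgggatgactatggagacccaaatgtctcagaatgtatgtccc
TLR6 at chr4:38856768-38857067, minus strand: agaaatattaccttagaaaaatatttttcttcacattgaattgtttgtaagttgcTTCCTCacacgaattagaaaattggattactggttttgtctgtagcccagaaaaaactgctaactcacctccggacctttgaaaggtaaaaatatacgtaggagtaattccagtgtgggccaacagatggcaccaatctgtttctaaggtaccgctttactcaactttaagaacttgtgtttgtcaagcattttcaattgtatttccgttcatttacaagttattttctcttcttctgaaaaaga
CCR1 at chr3:46208264-46208563, minus strand: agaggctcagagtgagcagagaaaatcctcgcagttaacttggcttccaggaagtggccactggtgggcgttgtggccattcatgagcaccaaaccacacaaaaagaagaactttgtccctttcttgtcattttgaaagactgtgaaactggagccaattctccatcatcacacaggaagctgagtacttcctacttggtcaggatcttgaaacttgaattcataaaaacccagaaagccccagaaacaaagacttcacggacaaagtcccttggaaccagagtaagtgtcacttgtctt
The window of C5AR1 holds GAGGAA at 2 places, those of FCGR2A and TLR6 at 1 each, and that of CCR1 at none. Of the 25 members in the table, 18 (72%) hold these letters in at least 1 of their windows, against 27.9% of all 35116 windows. Here and below, members were counted per gene and the background per window. A gene with more than 1 window has more chances of a match, so the 2 shares are not like measures. The C/EBP letters TTGCNNAA lie in 4 of the 25 (16%), against 10.5% of all windows, and in none of the 4 shown. The AP-1 letters TGANTCA lie in 8 of the 25 (32%), against 7.71% of all windows, and in none of the 4 shown. Both strands were searched and no motif overlaps another in the windows shown. A match describes the letters only.

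Library totals ran from 21053724 to 31135338 counts. Levels are in CPM, read counts scaled to a common library size with TMM factors, and 3 counts, the most that a count of 0 allows, equal 0.0941 to 0.146 CPM (counting error only). The 32 genes together held 1667 and 1637 CPM in U937 dG and 903 and 896 CPM in U937 PBS, and 86.8 and 86.7 CPM in KG1A dG and 52.0 and 50.3 CPM in KG1A PBS. In bulk RNA, fewer cells with a transcript and less of it per cell cannot be told apart. Of the granule genes of monoblasts, ELANE, PRTN3, AZU1, CTSG and RNASE2 were present in U937 at 1934 to 26618 counts per library, but MPO had 0 to 5 counts; over the 8 granule genes the summed level was 1916 and 1836 CPM in dG and 1057 CPM in each PBS library, with 5 called higher and 2 lower. CD34, SPINK2 and ERG, which mark immature cells, were present in KG1A and had at most 16 counts in a U937 library. Their summed level was 1384 and 1386 CPM in KG1A dG and 1067 and 1059 CPM in KG1A PBS, and all 3 were called higher. KG1A also held the T cell transcripts CD3D (2169 to 2902 counts) and CD3E (242 to 613 counts), of which CD3E was called higher in dG, and the 4 T cell genes summed to 125 and 122 CPM in dG and 105 and 107 CPM in PBS. Mature granulocyte genes moved with dG in U937. Of CEACAM8, LTF, CAMP and MMP8, the 3 tested were called higher, the summed level was 41.2 and 38.4 CPM in dG and 6.12 and 5.82 CPM in PBS, and CEACAM8 was at 0 in 1 PBS library. Among fibroblast and epithelial genes COL1A1 was called higher in U937 (106 and 87 counts in dG, 40 and 34 in PBS) and EPCAM and KRT19 were at 0, as were the erythroid genes HBA1 and HBB in all 8 libraries. The mitochondrial share of counts was 8.18% and 7.93% in U937 dG and 9.76% and 9.83% in U937 PBS. It was 8.01% and 8.30% in KG1A dG and 9.12% and 9.19% in KG1A PBS. The part of these in the results was not tested.

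**Figure D1:**
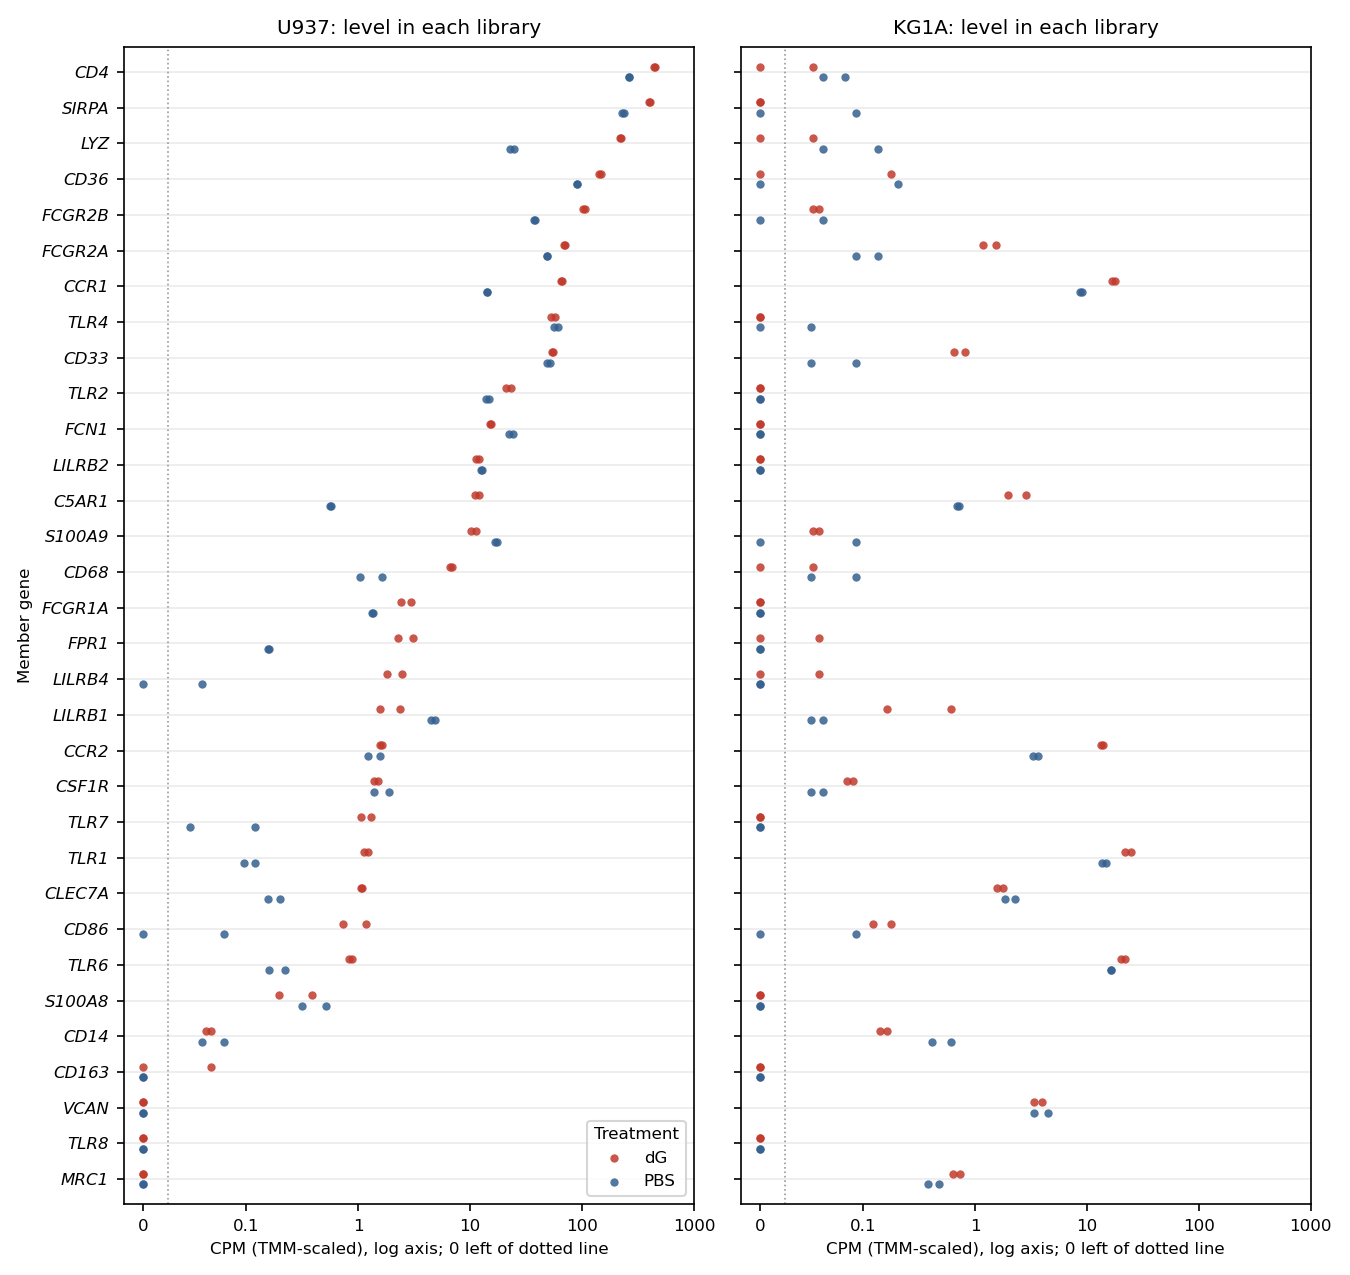
Level of each of the 32 genes in each library, in CPM on a log axis, for U937 (left) and KG1A (right); each point is 1 library, dG in red above PBS in blue, and libraries with 0 counts stand left of the dotted line. CD4, SIRPA and LYZ lead in U937 dG, while TLR1, TLR6, CCR1 and CCR2 lead in KG1A dG.

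Among Toll-like receptors in U937, TLR1, TLR6 and TLR7 were near 0 in PBS and rose in dG. TLR1, which pairs with TLR2 to sense bacterial lipopeptides, lay at 1.12 and 1.21 CPM in dG and 0.0941 and 0.120 CPM in PBS (log2 fold change 3.41 ± 0.47, adjusted p = 5.23e-08). TLR6, the other partner of TLR2, lay at 0.819 and 0.873 CPM in dG and 0.220 and 0.159 CPM in PBS (2.10 ± 0.43, adjusted p = 5.58e-05). The groups did not overlap for either gene. Here and below, separation of 2 libraries from 2 is described only, and its share over all genes was not counted. TLR1 and TLR6 overlap on the same strand of chromosome 4 and end at the same base in the deposited annotation (38790677 to 38856817 and 38823715 to 38856817), so the division of reads between them is uncertain. The endosomal RNA sensor TLR7 had 30 and 22 counts in dG and 1 and 3 counts in PBS, or 1.29 and 1.07 CPM against 0.0314 and 0.120 CPM (3.99 ± 0.53, adjusted p = 3.75e-08). Its fold rests on few PBS reads, and the log2 value was 3.25 without PBS replicate 1 and 5.03 without PBS replicate 2. TLR2 was already expressed and rose modestly, with 23.3 and 21.1 CPM in dG and 14.8 and 13.8 CPM in PBS (0.63 ± 0.09, adjusted p = 6.82e-08). TLR4, the receptor of bacterial lipopolysaccharide, lay at 57.6 and 53.0 CPM in dG and 60.5 and 56.6 CPM in PBS and did not pass the test (-0.08 ± 0.06, adjusted p = 0.218). Its groups overlapped, and it was called lower with library size alone (-0.16, adjusted p = 0.018). TLR8, another RNA sensor, had 0 counts in all 8 libraries.

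Chemoattractant receptors gave the largest fold among the members in U937. C5AR1, the receptor of the complement fragment C5a, lay at 11.99 and 10.96 CPM in dG and 0.565 and 0.558 CPM in PBS (4.34 ± 0.19, adjusted p = 7.36e-21). FPR1, which binds formylated bacterial peptides, lay at 3.06 and 2.28 CPM in dG and 0.157 and 0.159 CPM in PBS (4.05 ± 0.37, adjusted p = 6.22e-12). FPR1 overlaps FPR2 on the opposite strand (701 and 584 counts in dG, 412 and 307 in PBS), and the strand setting of the counting is not given in the sources used here. The chemokine receptor gene CCR1 lay at 65.8 and 64.6 CPM in dG and 14.1 CPM in each PBS library (2.21 ± 0.06, adjusted p = 1.36e-26). For each of these 3 genes every dG library was above every PBS library. CCR2, the receptor of the monocyte attractant CCL2, did not pass the test, at 1.64 and 1.55 CPM in dG and 1.22 and 1.55 CPM in PBS (0.22 ± 0.24, adjusted p = 0.437).

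The 3 Fc gamma receptor genes among the members rose in U937. FCGR2B, the inhibitory receptor of this family, lay at 106 and 101 CPM in dG and 37.0 and 38.0 CPM in PBS (1.47 ± 0.05, adjusted p = 9.00e-24). FCGR1A, the high-affinity receptor, lay at 2.97 and 2.43 CPM in dG and 1.35 and 1.32 CPM in PBS (1.02 ± 0.23, adjusted p = 0.000171). FCGR2A, an activating receptor, lay at 70.4 and 68.6 CPM in dG and 48.2 CPM in each PBS library (0.53 ± 0.05, adjusted p = 4.97e-11). In CPM FCGR2B was above FCGR2A in dG and below it in PBS, and the authors' RPKM, which corrects for length, gave the same order: 16.0 ± 0.68 and 13.4 ± 0.38 in dG, 5.55 ± 0.05 and 8.93 ± 0.08 in PBS (SD, n = 2 each). Reads of FCGR2B and its near-identical neighbour FCGR2C may be divided arbitrarily, and FCGR2C had 33.9 and 34.0 CPM in dG and 12.5 and 13.2 CPM in PBS. The same holds for FCGR1A and its copy FCGR1B.

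The inhibitory receptors of U937 went different ways. LILRB1, which binds MHC class I, fell to 2.37 and 1.55 CPM in dG, against 4.80 and 4.50 CPM in PBS (-1.23 ± 0.20, adjusted p = 1.74e-06). LILRB4 had 57 and 37 counts in dG and 0 and 1 in PBS and was called higher (adjusted p = 4.27e-12). LILRB2 lay at 11.4 and 11.9 CPM in dG and 12.8 and 12.4 CPM in PBS and did not pass the test (-0.12 ± 0.10, adjusted p = 0.288), although its groups did not overlap. These genes belong to a cluster of similar sequences on chromosome 19, and reads shared between them are uncertain. SIRPA, which binds CD47 on other cells and restrains phagocytosis, lay at 396 and 403 CPM in dG and 237 and 229 CPM in PBS (0.78 ± 0.04, adjusted p = 4.95e-20). The sialic acid receptor gene CD33 lay at 53.8 and 55.4 CPM in dG and 49.1 and 51.9 CPM in PBS (0.11 ± 0.06, adjusted p = 0.077). It was called higher with DESeq2 size factors (0.20, adjusted p = 0.00166). With a library left out, the log2 value of CD33 ranged from 0.066 to 0.19.

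**Figure D2:**
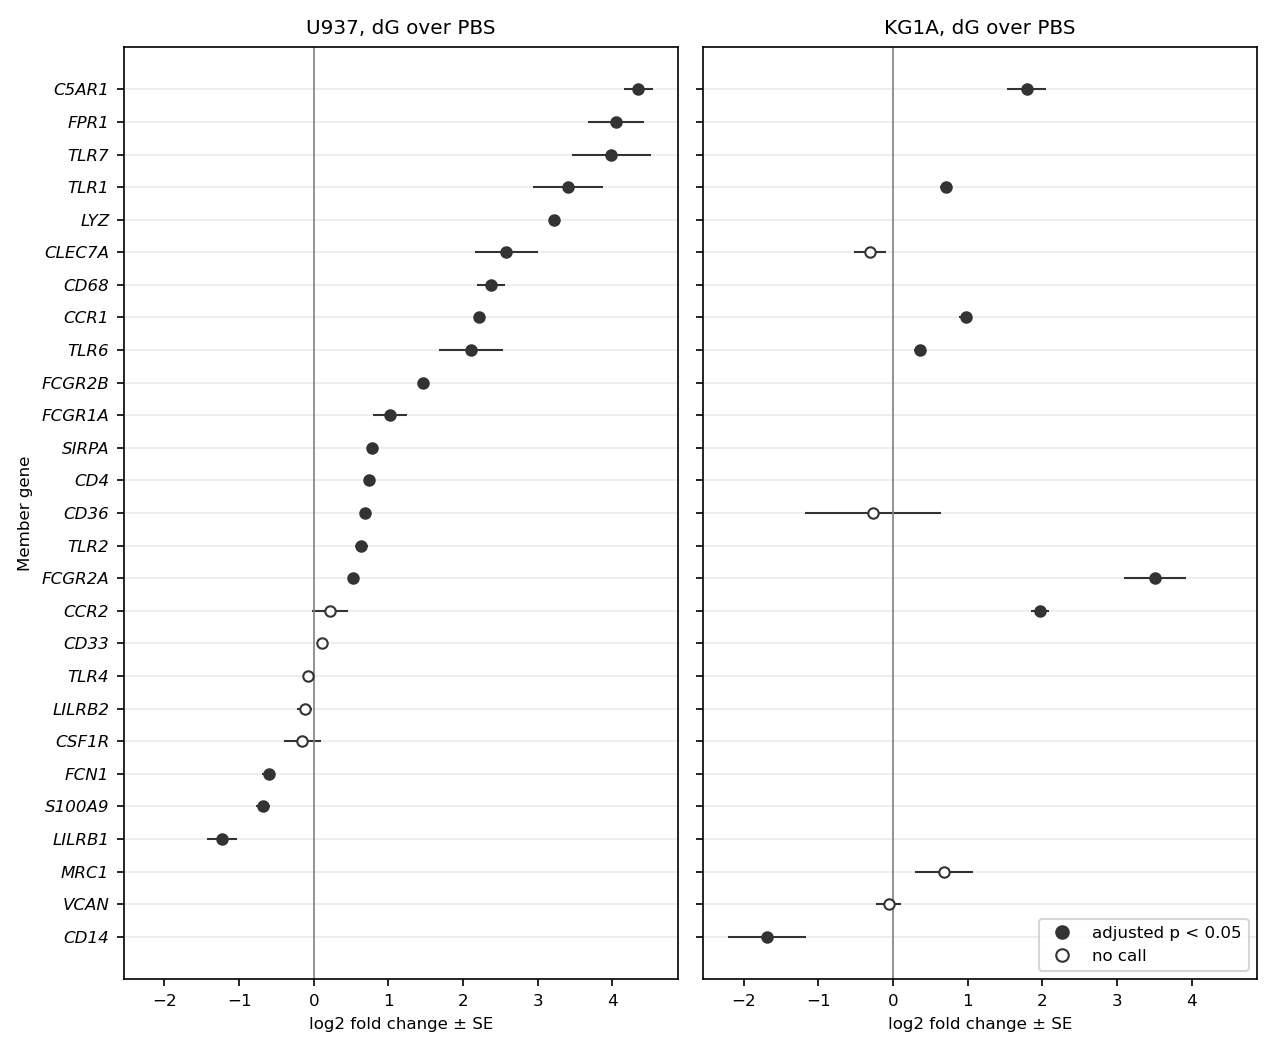
Log2 fold change of dG over PBS with its standard error in U937 (left) and KG1A (right) for members with more than 3 counts in both groups; filled points passed the test and open points did not. C5AR1 stands highest in U937 at 4.34, and FCGR2A highest in KG1A at 3.51.

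Other surface and secreted markers in U937 rose in part. LYZ, the bactericidal enzyme lysozyme, lay at 225 and 219 CPM in dG and 24.7 and 22.7 CPM in PBS (3.22 ± 0.05, adjusted p = 2.46e-34). CD68, a glycoprotein of macrophage lysosomes whose gene overlaps AC113189.5 on the opposite strand (43 and 37 counts in dG, 78 and 59 in PBS), lay at 6.60 and 6.94 CPM in dG and 1.04 and 1.63 CPM in PBS (2.37 ± 0.19, adjusted p = 1.22e-13). CLEC7A, the fungal glucan receptor dectin-1, lay at 1.08 and 1.07 CPM in dG and 0.157 and 0.199 CPM in PBS (2.58 ± 0.42, adjusted p = 1.78e-06). The dG and PBS libraries did not overlap for these genes. CD86, a co-stimulatory ligand for T cells, had 27 and 15 counts in dG and 2 and 0 in PBS and was called higher (adjusted p = 1.86e-07). CD4, a co-receptor that human monocytes also carry, rose by 0.73 ± 0.03 and the scavenger receptor gene CD36 by 0.69 ± 0.05 on the log2 scale, with CD4 at 446 and 436 CPM in dG and 266 and 265 CPM in PBS. CD36 lay at 147 and 143 CPM in dG and 89.3 and 90.1 CPM in PBS, so neither gene overlapped between the groups. The adjusted p was 1.41e-20 for CD4 and 1.15e-14 for CD36, and CD36 was not called by DESeq2's Wald test (0.78, adjusted p = 0.589), while its adjusted p was 3.36e-11 or lower in each of the other alternatives run.

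Some classical monocyte genes in U937 fell or were nearly absent. S100A9, a subunit of calprotectin, fell to 11.2 and 10.1 CPM in dG, against 16.8 and 17.5 CPM in PBS (-0.68 ± 0.10, adjusted p = 1.41e-07). FCN1, the lectin M-ficolin, fell to 15.1 and 15.4 CPM in dG, against 22.4 and 24.1 CPM in PBS (-0.60 ± 0.08, adjusted p = 9.56e-08). The other calprotectin subunit, S100A8, was too low to test, with 9 and 4 counts in dG and 10 and 13 in PBS. CSF1R, the receptor of the macrophage growth factor CSF1, did not pass the test, at 1.38 and 1.50 CPM in dG and 1.38 and 1.87 CPM in PBS (-0.16 ± 0.25, adjusted p = 0.614). CD14, the lipopolysaccharide co-receptor, had 1 and 1 counts in dG and 2 and 1 in PBS. CD163, which takes up haemoglobin, had 0 and 1 counts in dG and 0 in both PBS libraries, and the mannose receptor gene MRC1 and the proteoglycan gene VCAN had 0 in all 4. At this depth CD14, CD163 and MRC1 thus held 0 to 2 counts in any U937 library.

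In KG1A most of the 32 genes were near 0, and a smaller set was expressed, of which CCR1 was also expressed in U937. TLR1, TLR6, CCR1, CCR2 and VCAN each exceeded 3 CPM in every KG1A library, while 18 of the 29 tested members had 3 or fewer counts in at least 1 of the KG1A groups. CCR2 lay at 14.0 and 13.2 CPM in dG and 3.29 and 3.66 CPM in PBS (1.96 ± 0.12, adjusted p = 3.10e-16). C5AR1 lay at 2.88 and 1.98 CPM in dG and 0.694 and 0.718 CPM in PBS (1.79 ± 0.26, adjusted p = 2.87e-07). For both genes the dG libraries stood above the PBS libraries. FCGR2A had 43 and 29 counts in dG and 2 and 4 counts in PBS, or 1.53 and 1.17 CPM against 0.0867 and 0.137 CPM (3.51 ± 0.42, adjusted p = 4.65e-09). CCR1 lay at 17.7 and 16.9 CPM in dG and 8.67 and 8.96 CPM in PBS (0.97 ± 0.08, adjusted p = 3.37e-12). TLR1 rose by 0.71 ± 0.08 and TLR6 by 0.36 ± 0.08 on the log2 scale, with TLR1 at 22.0 and 24.5 CPM in dG and 14.9 and 13.6 CPM in PBS. TLR6 lay at 20.1 and 21.9 CPM in dG and 16.3 CPM in each PBS library.

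CD33 and LILRB1 were also called higher in KG1A, from very few reads. CD33 had 23 and 16 counts in dG and 2 and 1 in PBS (adjusted p = 1.85e-06). LILRB1 had 17 and 4 counts in dG and 1 and 1 in PBS (adjusted p = 0.00151), and its call ended without dG replicate 1 (adjusted p = 0.181). CD14 was the member called lower, with 4 and 4 counts in dG and 14 and 12 in PBS (-1.69 ± 0.52, adjusted p = 0.00659). Its call ended without PBS replicate 1 (adjusted p = 0.1002), without dG replicate 1 (adjusted p = 0.0742) and in DESeq2's Wald test (adjusted p = 0.164). CLEC7A (-0.31 ± 0.22, adjusted p = 0.256), VCAN (-0.06 ± 0.17, adjusted p = 0.825) and MRC1 (0.69 ± 0.39, adjusted p = 0.151) did not pass the test. Their levels in dG and PBS were 1.78 and 1.57 against 1.86 and 2.26 CPM for CLEC7A, 3.98 and 3.39 against 4.46 and 3.35 CPM for VCAN, and 0.640 and 0.727 against 0.477 and 0.376 CPM for MRC1. Of these 3 genes, the dG and PBS libraries overlapped for VCAN. CD36 had 5 and 0 counts in dG and 0 and 6 in PBS, so each treatment had 1 library at 0. TLR2, TLR7, TLR8, FCGR1A, FCN1, LILRB2, CD163 and S100A8 had 0 counts in all 4 KG1A libraries. CSF1R, LYZ, CD68, CD4, CD86, TLR4, FCGR2B, S100A9, LILRB4, FPR1 and SIRPA had at most 5 counts in any of them.

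Members abundant in U937 were also read in each KG1A library as a share of their mean U937 level. That mean is taken over the 4 U937 libraries, dG and PBS together. CD4 and SIRPA had 0 to 2 counts per KG1A library, at most 0.0194% and 0.0274% of their mean U937 level. ELANE, at 107 CPM in U937, had 0 counts in all 4, and the summed U937 granule genes reached 0.143% and 0.0936% of the U937 level in dG and 0.0266% and 0.0280% in PBS. CTSG gave 42 of 59 and 22 of 34 of these counts in dG and 4 of 9 and 5 of 12 in PBS. FCGR2A lay at 2.60% and 1.99% of its U937 level in KG1A dG and 0.147% and 0.232% in KG1A PBS. CD33 lay at 1.56% and 1.23% in dG and 0.165% and 0.0651% in PBS. Reads of U937 in the KG1A libraries, and their part in these results, were not tested. C5AR1 and CCR1 in KG1A dG held 32.9% to 47.9% of these pooled U937 levels. Mean C5AR1 was 2.43 CPM in KG1A dG, 11.5 CPM in U937 dG and 0.561 CPM in U937 PBS. For CCR1 the same means were 17.3, 65.2 and 14.1 CPM.

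**Figure D3:**
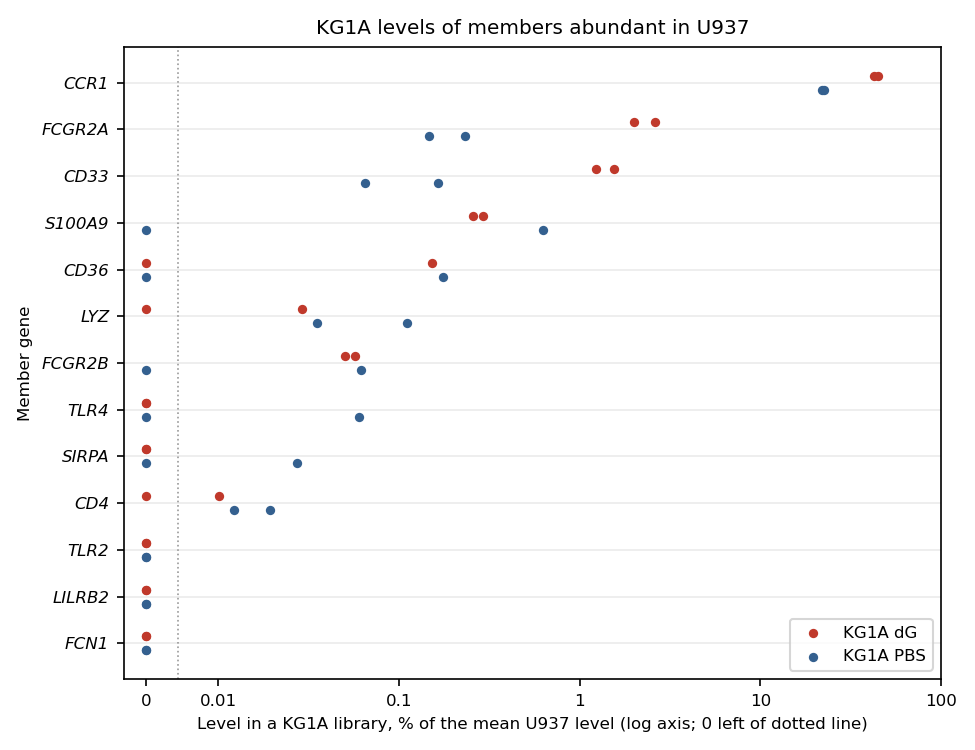
Level in each KG1A library as a percent of the gene's mean level over the 4 U937 libraries, on a log axis, for members with a mean of at least 10 CPM in U937; dG is red above PBS in blue, and 0 stands left of the dotted line. FCGR2A and CD33 in dG lie at 1.23% to 2.60%, whereas CD4 and SIRPA lie at or under 0.0274% in all 4 libraries.

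The dG effects of the lines were compared by the difference of the log2 fold changes, U937 minus KG1A. Of the members, 7 differed towards U937 and 4 towards KG1A, beside 17.6% and 26.4% of all genes tested (44.1% in either direction). By the fitted value, low counts included, the 7 and the 4 were at least 2-fold, beside 4.02% and 7.04% of all genes, but LYZ, CD68, LILRB1 and CD33 have no fold change here. With DESeq2 size factors the split over all genes was 4021 and 3898, beside 3230 and 4841 here, and that of the members was 7 and 4 in both. CLEC7A (2.88 ± 0.48, adjusted p = 4.30e-06), TLR1 (2.70 ± 0.49, adjusted p = 1.94e-05), C5AR1 (2.56 ± 0.40, adjusted p = 1.61e-06), TLR6 (1.74 ± 0.44, adjusted p = 0.0013) and CCR1 (1.24 ± 0.11, adjusted p = 7.60e-12) had the higher log2 fold change in U937. FCGR2A (-2.98 ± 0.43, adjusted p = 4.09e-07) and CCR2 (-1.74 ± 0.27, adjusted p = 1.52e-06) had the higher log2 fold change in KG1A. Within a line, CLEC7A did not pass the test in KG1A and CCR2 did not pass it in U937. The comparison is of ratios, and gains in CPM can be ordered differently. LYZ and CD68 were called towards U937, and LILRB1 and CD33 towards KG1A, with 5 or fewer KG1A PBS counts in sum. The call of LYZ ended without KG1A PBS replicate 2 (adjusted p = 0.132). That of CD68 ended without KG1A PBS replicate 1 (adjusted p = 0.297), without KG1A dG replicate 2 (adjusted p = 0.115) and without U937 PBS replicate 1 (adjusted p = 0.0551). Over members with more than 3 counts in both groups, the median log2 fold change was 0.76 in U937 (24 members) and 0.69 in KG1A (11 members). Over all genes under the same rule it was -0.02 and 0.06.

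In PBS most tested members differed between the lines, as did most genes. Of the 29 tested, 19 were called higher in U937 and 7 higher in KG1A, beside 41.4% and 40.8% of all genes. By the fitted value, low counts included, 18 and 7 were at least 2-fold, beside 22.7% and 21.2% of all genes. Over all genes, 82.3% were called in either direction, and 43.9% were called and at least 2-fold. Of the 29, 20 held 3 or fewer counts in sum in at least 1 of the lines. CD4 had 8461 and 6645 counts in U937 and 1 and 2 in KG1A, and SIRPA had 7541 and 5751 in U937 and 2 and 0 in KG1A. TLR1 lay at 0.0941 and 0.120 CPM in U937 and 14.9 and 13.6 CPM in KG1A, so TLR1 and TLR6 were expressed in the line in which TLR2, their partner, had 0 counts. CCR1 was 1.60-fold higher in U937 (0.67 ± 0.09), and C5AR1 did not pass the test (-0.33 ± 0.36, adjusted p = 0.395). The call of TLR7, with 1 and 3 counts in U937 and 0 in KG1A, had an adjusted p of 0.0379 and ended in 5 of the 8 fits that left out 1 library (adjusted p = 0.0539 to 0.231), in DESeq2's Wald test (0.0716) and with no filter (0.0567).

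Levels can be ordered between genes only per length, by the authors' RPKM. In U937 dG the order began with LYZ (129 ± 3.93), CD4 (98.8 ± 2.42), SIRPA (81.0 ± 0.19), CCR1 (24.5 ± 0.56), S100A9 (19.0 ± 1.48) and FCGR2B (16.0 ± 0.68 RPKM, SD, n = 2). In U937 PBS it began with CD4 (57.0 ± 0.66), SIRPA (45.3 ± 1.46), S100A9 (29.2 ± 0.61), LYZ (13.2 ± 0.93) and TLR4 (11.0 ± 0.63 RPKM), and LYZ thus led in dG and stood below CD4, SIRPA and S100A9 in PBS. FCGR2A (8.93 ± 0.08), CD36 (8.73 ± 0.03) and CD33 (8.32 ± 0.25) followed closely. In KG1A dG the order was CCR1 (6.15 ± 0.22), TLR1 (4.98 ± 0.37), CCR2 (3.54 ± 0.15) and TLR6 (3.37 ± 0.20), and the ranges of CCR2 and TLR6 overlapped. In KG1A PBS it was CCR1 (3.28 ± 0.09), TLR1 (3.19 ± 0.20), TLR6 (2.74 ± 0.01) and CCR2 (0.947 ± 0.07 RPKM), and the ranges of CCR1 and TLR1 overlapped.

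Related genes outside the 32 were read from 6 lists, with counts given over the genes tested; beside them, 32.4% of all genes were called higher and 31.5% lower in U937, and 29.6% and 19.6% in KG1A. Of 21 Toll-like receptors, co-receptors and adaptors 18 were tested, of which 11 were higher and 2 lower in U937 and 8 higher and 3 lower in KG1A. LY86, a partner of the receptor CD180, rose by 1.57 ± 0.11 in U937, the adaptor kinase gene IRAK2 by 1.37 ± 0.07 and the chaperone gene HSP90B1, which folds Toll-like receptors, by 1.13 ± 0.03. HSP90B1 was called lower in KG1A (-0.24 ± 0.03). In KG1A LY96, the lipopolysaccharide-binding partner of TLR4, rose by 1.26 ± 0.12, the flagellin receptor gene TLR5 by 0.89 ± 0.21 and IRAK2 by 0.82 ± 0.18. LY96 had 112 and 79 counts in U937 dG and 7 and 0 in U937 PBS (5.09 ± 0.36); it lies under the level set for naming and is given because it stands out among these genes, seen after its values. Of 14 Fc receptor relatives and signalling genes 12 were tested, of which 6 were higher and 3 lower in U937 and 7 higher and 0 lower in KG1A. FCER1G, the signalling chain of FCGR1A, rose by 2.05 ± 0.05 in U937, where it lay at 129 and 120 CPM in dG and 29.9 and 30.3 CPM in PBS. FCGR2C (1.41 ± 0.08) and FCGRT (1.31 ± 0.04), the neonatal Fc receptor gene, also rose there. FCGRT (1.62 ± 0.20), VAV1 (0.34 ± 0.04) and INPP5D (0.33 ± 0.03), a lipid phosphatase of inhibitory signalling, rose in KG1A. INPP5D was called lower in U937 (-0.11 ± 0.03).

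Of 17 inhibitory and paired receptors 15 were tested, of which 10 were higher and 4 lower in U937 and 5 higher and 1 lower in KG1A. LILRA6 (4.52 ± 0.26), LILRA5 (2.15 ± 0.25) and PILRA (1.89 ± 0.14) rose in U937, and CLEC12A (2.18 ± 0.21), LAIR1 (1.06 ± 0.09) and the phosphatase gene PTPN6 (0.62 ± 0.20) in KG1A. CLEC12A was called lower in U937 (-0.55 ± 0.05). Of 12 further chemoattractant receptors 10 were tested, of which 7 were higher and 0 lower in U937 and 4 higher and 1 lower in KG1A. PTAFR, the platelet-activating factor receptor gene, rose by 2.64 ± 0.10 in U937, CCRL2 by 2.01 ± 0.12 and the complement receptor gene C3AR1 by 1.80 ± 0.09. C3AR1 was called lower in KG1A (-0.21 ± 0.08). In KG1A CCRL2 rose by 0.92 ± 0.12 and the leukotriene receptor gene LTB4R by 0.23 ± 0.10 (adjusted p = 0.0496). Of 18 scavenger and phagocytic receptors 12 were tested, of which 8 were higher and 0 lower in U937 and 6 higher and 1 lower in KG1A. SIGLEC1, the macrophage sialoadhesin gene, lay at 13.7 and 13.5 CPM in U937 dG and 0.188 and 0.279 CPM in U937 PBS (5.87 ± 0.22). MARCO (1.72 ± 0.07) and MERTK (1.54 ± 0.06) rose in U937, and CLEC4E (1.55 ± 0.27), STAB1 (1.49 ± 0.03) and MERTK (0.76 ± 0.13) in KG1A. Of 16 other monocyte-associated genes and CSF1R ligands 11 were tested, of which 10 were higher and 1 lower in U937 and 4 higher and 0 lower in KG1A. TYROBP (3.07 ± 0.17), a signalling adaptor of myeloid receptors, and PLAUR (1.41 ± 0.05) rose in U937. CTSS (1.70 ± 0.10), PLAUR (1.35 ± 0.08) and AIF1 (0.52 ± 0.05) rose in KG1A. Values are log2 fold changes with their standard errors, and all named genes passed the test.

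**Figure D4:**
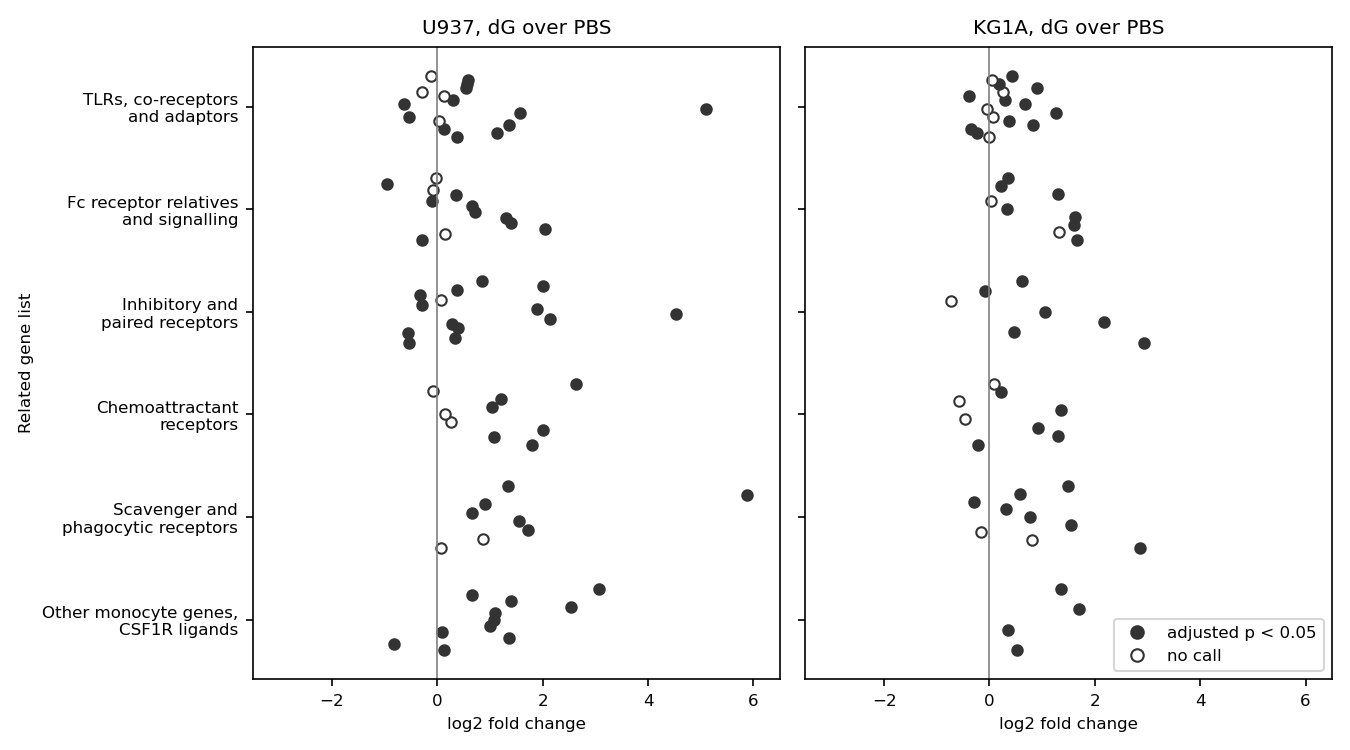
Log2 fold change of dG over PBS in U937 (left) and KG1A (right) for genes of 6 related lists with more than 3 counts in both groups; each point is 1 gene, filled where it passed the test and open where it did not. SIGLEC1 at 5.87, LY96 at 5.09 and LILRA6 at 4.52 stand far to the right in U937.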

How the data were processed

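Read counts per gene and RPKM were deposited by the authors for 8 libraries. Per the submitters' processing notes, bcl2fastq 2.18.0.12, TopHat2 and HTSeq 0.11.2 were used, and the build is hg38. Their roles and settings, the annotation, the strand setting and the handling of reads matching more than 1 gene are not given in the sources used here. The deposited RPKM equalled the counts per kilobase of exon and per TMM-scaled library. Counts as deposited were tested with edgeR 4.0.16 in R 4.3.3 (two-sided quasi-likelihood F test, TMM, filterByExpr, which left 18314 genes), with a mean for each line and treatment and all 8 libraries in the fit. P-values were adjusted by Benjamini-Hochberg across those genes, and the error given with a fold change on the log2 scale is a standard error. DESeq2 1.42.0, other scalings, no filter, a replicate block, each line alone and left-out libraries were alternatives. In simulated counts for dG against PBS in U937 (18150 genes tested), 77% of genes changed by 1 on the log2 scale and 84% of those changed by 2 were recovered. The simulation gave all genes the same dispersion, changed 100 genes by each amount and left the other genes unchanged in U937. The changed genes were drawn from all tested genes, those low in U937 included. The rates need not hold in the real data.

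The members and the 6 related lists were chosen with earlier results of these data known. All 32 members are named, and each related list names up to 3 called genes with the largest change among those whose log2 CPM averaged 0 or more. Some genes that this rule or the marker lists would name are not reported here. Replicates differed beyond counting error (chi-square of 1.72 to 2.10 per gene). Sequences are from RefSeq (GRCh38.p14), whose promoter table held 25 of the 32 genes.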

Additional observations from a re-analysis of the deposited data

Results flagged for a closer look

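The effect of dG differed between U937 and KG1A, by a test of the difference itself, for 7 members with more than 3 counts in every group. With low counts included, 7 of the 29 tested members differed towards U937 and 4 towards KG1A. Over all genes tested 17.6% and 26.4% did so (44.1% in either direction), so such a difference was common. The difference of log2 fold changes, U937 minus KG1A, was 2.88 for CLEC7A, 2.70 for TLR1, 2.56 for C5AR1, 1.74 for TLR6, 1.24 for CCR1, -1.74 for CCR2 and -2.98 for FCGR2A. Of these, TLR1, TLR6 and CLEC7A had 3 to 7 counts in each U937 PBS library, and FCGR2A had 2 and 4 in KG1A PBS.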

How the results depend on the processing

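The 52 member values with a fold change were recomputed under up to 14 alternatives each, 710 values in all, of which 691 kept their direction and their side of the threshold. In U937, TLR4 turned to 0.0084 with DESeq2 size factors and 0.0090 with DESeq2's Wald test, and ranged from -0.14 to 0.040 when each library was left out; CSF1R then ranged from -0.38 to 0.045. In KG1A, VCAN ranged from -0.27 to 0.14 and CD36 from -4.61 to 4.33 with a library left out, and the CD36 difference between the lines from -3.64 to 5.29 (called without KG1A dG replicate 1, adjusted p = 0.0285); the CD36 reads lay in 1 library per treatment. CD36 in U937 was not called by DESeq2's Wald test (0.78, adjusted p = 0.589); the cause was not tested. The count of members called lower in KG1A, 1 here, was 0 with DESeq2's Wald test and 0 to 1 with a library left out. Genes called towards KG1A in the difference between the lines numbered 3109 with DESeq2's Wald test, beside 4841. Scaling shifted the median gene of U937 by 0.09 with DESeq2 size factors and -0.07 with library size alone. With the replicate number within each line as a block, 18 members were higher and 3 lower in U937 and 8 and 1 in KG1A. The deviations of same-numbered libraries correlated at 0.008 in U937 and -0.050 in KG1A over the genes tested. The labels do not say what the number marks, and these values cannot show whether such libraries were paired. The block ended the call of TLR7 between the lines in PBS (adjusted p = 0.147). Members called higher numbered 7 with KG1A fitted alone, where LILRB1 was not tested. Depth limits genes under 3 counts per library.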
